A study of Homo sapiens with 12 samples.

Results

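The 10 genes described here encode the intermediate filament proteins that are used to place 293T cells among cell types: the neurofilament chains NEFL, NEFM and NEFH, the neuronal filament proteins INA and PRPH, NES, VIM, DES, and the keratin pair KRT8 and KRT18. They were chosen by name from the 58735 genes of the count table, by a rule that uses no measured value. Earlier results of these data were known when they were chosen. The cells were 293T 4A, a human embryonic kidney line that carries a doxycycline-inducible 4EBP1-4A construct. 4EBP1 is a repressor of the cap-binding factor eIF4E, and 4A is a mutant that cannot be phosphorylated at the sites that release eIF4E. Both groups carry the construct. RNA-seq of total RNA and Ribo-seq, which counts the mRNA fragments that ribosomes protect, were each done on 3 libraries of cells given DMSO and 3 of cells given doxycycline (DOX) at 2 mg/mL, and the labels give 12 h for both, while the series text gives 2 h for DOX and the results text of the study a longer time than either. All 12 libraries come from 1 cell line, the study calls them biological replicates but the labels do not say whether they were separate cultures, so that p-values measure only the spread between these libraries, which may be technical. No DOX-treated cells without the construct were analysed here, so DOX itself and the induced protein cannot be told apart.

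Intermediate filaments are rope-like polymers of coiled-coil proteins that differ between cell lineages. Keratins form obligate pairs of an acidic and a basic chain, and KRT18 and KRT8 are the pair of simple epithelia such as the kidney tubule. VIM builds the filaments of mesenchymal cells and of most cultured lines, NES is a filament protein of neural progenitors that copolymerises with VIM, and DES is the filament protein of muscle. In neurons NEFL, NEFM, NEFH and INA assemble together, with PRPH in peripheral neurons.

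Reads assigned to genes numbered 51519700 to 57824136 per RNA-seq library with DMSO, 21687906 to 47862104 with DOX, and 210186 to 1002424 per Ribo-seq library. DOX replicate 3 stood apart in RNA-seq. It had the fewest reads on genes, and 88.4% of its alignments were not unique, against 54.9% to 62.3% with DMSO and 65.4% to 69.9% in the other DOX libraries. Its expression was the highest of the 6 libraries for 34.9% of the 20552 genes tested and the lowest for 46.2%, and results that rest on it are therefore given with and without it. EIF4EBP1, the gene of the induced protein, had 161 ± 7.60 CPM (depth-normalised read counts, scaled with TMM factors, SD, n = 3) with DMSO and 269.5 ± 10.8 CPM with DOX, with every DOX library above every DMSO library. Reads of the construct and of the endogenous gene were not separated in these counts.

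VIM mRNA was by far the most abundant of the 10 in DMSO-treated cells, and the neurofilament mRNAs NEFL and NEFM came next, above both keratins as counted. Levels between genes are given per length, as reads per kilobase of exon scaled to the same sum over all genes in every library (the TPM scale), with the union of all annotated exons as the length. VIM had 431.5, 479.6 and 462.1 in the 3 DMSO libraries, a mean of 458 ± 24.3 (SD, n = 3), which placed it 86th among 19831 protein-coding genes. NEFL had 74.2, 85.4 and 79.2 (79.6 ± 5.63, above 93.5% of coding genes), and NEFM had 53.5, 72.1 and 68.1 (64.6 ± 9.79, above 91.1%). The 3 libraries therefore gave the same order for these 3 genes, with VIM 5.75 times NEFL and NEFL 1.23 times NEFM.

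**Figure D1:**
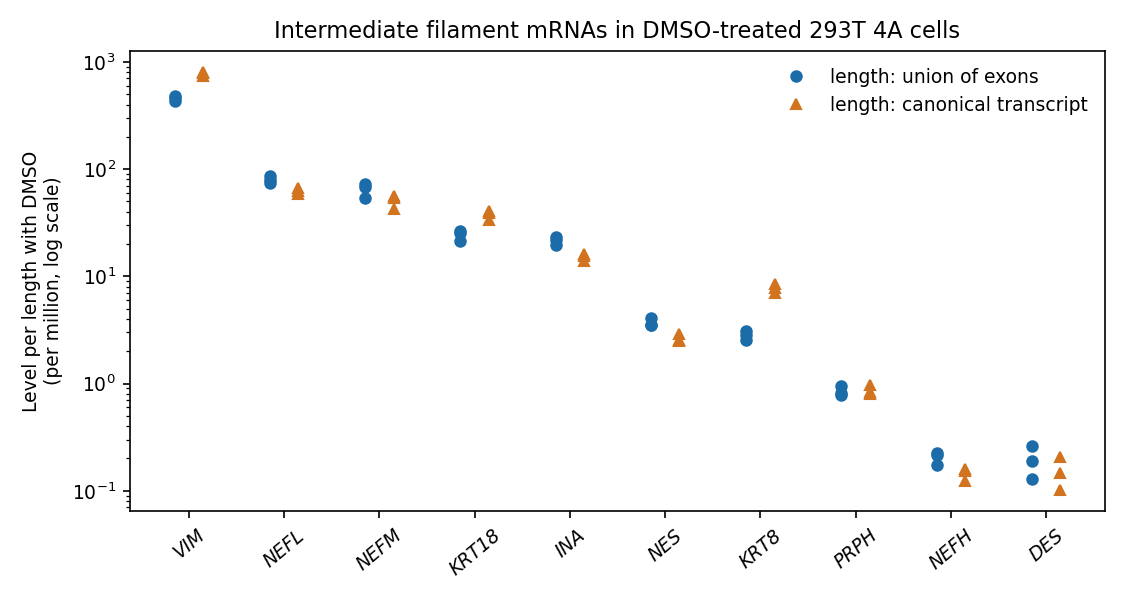
RNA-seq level per length of each gene in the 3 DMSO libraries, on a log scale, with the length taken as the union of annotated exons (circles) or as the canonical transcript (triangles); each point is 1 library. VIM sits highest with both lengths, NEFL and NEFM follow, and with the canonical length KRT8 rises above NES and DES above NEFH.

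Below them, KRT18 had 24.4 ± 2.59 and INA 21.5 ± 1.75, and their ranges over the libraries overlapped with this length but not with the canonical length given below. INA is the internexin that many neurons make early. NES had 3.71 ± 0.324 and KRT8 2.83 ± 0.284. PRPH, at 0.843 ± 0.0891, NEFH, the heavy neurofilament chain, at 0.205 ± 0.0278, and DES, at 0.193 ± 0.0677, were the lowest. NEFH and DES overlapped too, and apart from these and KRT18 with INA, neighbours in the order did not. NEFH had 11 to 16 reads and DES 6 to 11 per DMSO library, so that their levels rest on few reads. VIM made up 69.9% ± 1.01 of the summed levels of the 10 genes, NEFL 12.1%, NEFM 9.81%, KRT18 3.72% and INA 3.27%.

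The neurofilament genes NEFM (chr8:24913758-24919098, + strand of GRCh38) and NEFL (chr8:24950955-24956721, − strand) lie 31856 bases apart. NEFH is on chromosome 22 (29480218 to 29491390, + strand), INA on chromosome 10 (103277138 to 103290346, + strand), and VIM on the same chromosome from 17228241 to 17237593, + strand. PRPH lies on chromosome 12 from 49295147 to 49298686 (+ strand), NES on chromosome 1 from 156668763 to 156677407 (− strand), and DES on chromosome 2 from 219418377 to 219426735 (+ strand). Several of them share exon bases with a gene on the opposite strand, and the sources used here do not say whether strand was used in counting. The share was 71.5% of the exon union for PRPH (with TROAP-AS1), 26.4% for NEFM (with a long noncoding RNA), 19.8% for NEFL, 13.9% for INA (with NT5C2) and 12.7% for VIM (with VIM-AS1). NT5C2 itself had 13504 RNA-seq reads in the 6 libraries, and VIM-AS1 had 1276. The part of these overlaps in the levels was not tested.

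The length used moved some of these values. The exon unions of VIM (5176 bases) and KRT8 (6881 bases) are longer than their canonical transcripts (2154 and 1784 bases). With the canonical length VIM rose to 779 ± 37.4 and KRT8 to 7.74 ± 0.781, above NES at 2.63, while VIM stayed first, followed by NEFL (62.0 ± 4.00) and NEFM (50.8). KRT18 (37.6 ± 3.95) then stood 2.47 times above INA (15.2), without overlap, and DES stood above NEFH, with overlapping ranges.

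KRT8 (chr12:52897187-52949954, − strand) and KRT18 (chr12:52948871-52952906, + strand) are neighbours whose annotated bounds overlap by 1084 bases, and their exons share 525 bases. Both genes have many processed pseudogenes, intronless copies of their mRNA inserted elsewhere in the genome. Of the 1753 windows of 32 bases in the KRT8 transcript 70.4% were found at another place in GRCh38, and of the 1382 windows of KRT18 69.8%, where a repeated window had up to 20 and up to 22 other places. For NEFH the share was 14.9%, for NEFM 2.10% and for PRPH 1.58%. VIM and DES each had 1 such window, and NEFL, INA and NES had 0. The start of the coding sequence shows how close the copies are, and it is printed for KRT18 beside its pseudogene with the most RNA-seq reads. Capitals mark the bases that differ, and bases 1 to 60 of the coding sequence are shown.
KRT18: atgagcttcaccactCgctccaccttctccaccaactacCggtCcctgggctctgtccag
KRT18P31: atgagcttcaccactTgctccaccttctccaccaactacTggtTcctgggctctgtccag
KRT18 is from chr12:52949174-52949233 (+ strand) and KRT18P31 from chr5:36885206-36885265 (+ strand), both of GRCh38. They differ at 3 of 60 bases, and KRT18P31 is 90.3% identical to the coding sequence over its aligned length. KRT8P12, the KRT8 pseudogene with the most reads, is 86.1% identical to that of KRT8.

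Many reads were counted on the keratin pseudogenes. KRT8 had 51 of them in the count table, with a median identity of 89.7%, of which 38 held a read, and KRT18 had 67, with a median of 90.4%, of which 52 did. In the 6 RNA-seq libraries 5161 reads were counted on KRT8 pseudogenes and 1979 on KRT8, and 2889 on KRT18 pseudogenes and 7823 on KRT18. KRT8P12 alone had 1555 reads and KRT18P31 had 775. The pseudogenes held 67.7% to 75.1% of the combined KRT8 reads of a library and 24.4% to 29.4% of those of KRT18, and those ranges do not overlap. The counts of both keratins are therefore uncertain, more so for KRT8, and which reads came from transcribed copies was not tested.

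**Figure D2:**
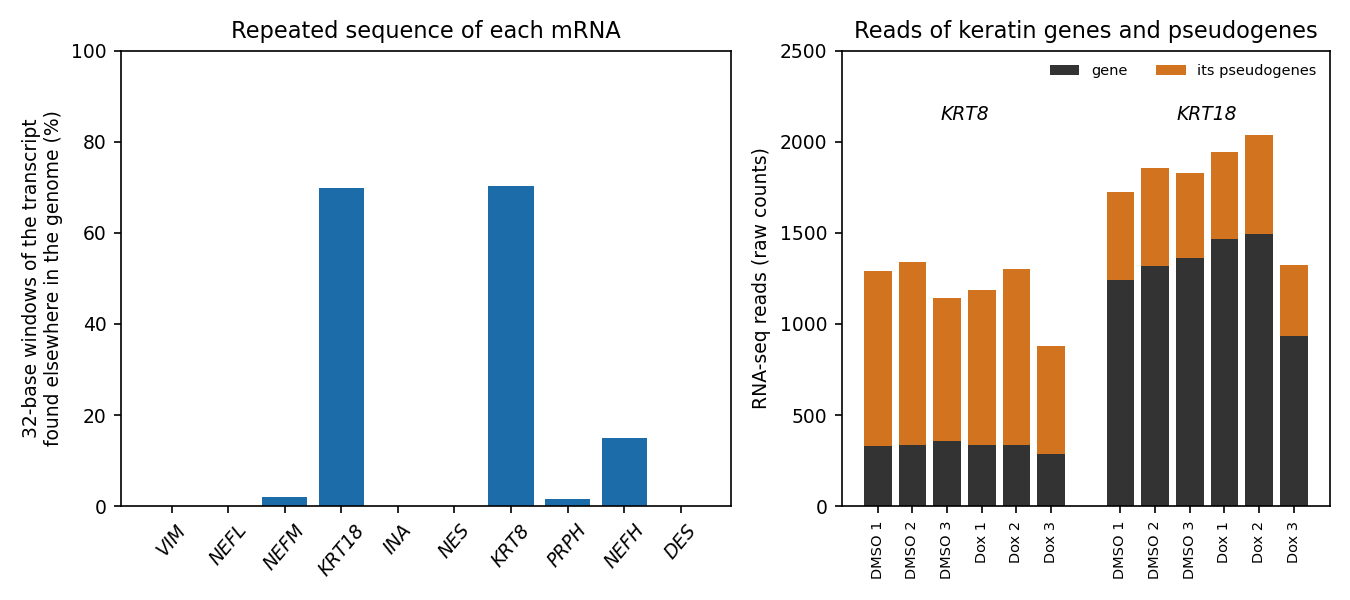
Left, percent of the 32-base windows of each canonical transcript that are found elsewhere in GRCh38; right, raw RNA-seq reads on KRT8 and KRT18 (dark) and on their pseudogenes (orange, stacked) in each library. Only KRT8 and KRT18 have repeated windows near 70%, and pseudogene reads outnumber gene reads for KRT8 in all 6 libraries but not for KRT18.

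On the level scale KRT8 was 0.116 of KRT18 with DMSO (0.113 to 0.118 in the 3 libraries), although the proteins pair in equal parts in the filament. With canonical lengths the ratio was 0.206. When the reads of the pseudogenes were added to their parents it was 0.311 with the exon union and 0.552 with the canonical length, KRT8 then having a level of 10.4 ± 0.866 and KRT18 of 33.6 ± 3.28 over the exon union. KRT8 stayed below KRT18 in each of the 4 calculations. All 4 use only uniquely aligned reads, and reads left out as not unique are missing from each. They therefore do not settle the order of KRT8 and KRT18, or that of either keratin and NEFM. With the canonical length and the pseudogene reads KRT18 had 51.8 ± 4.90, within the spread of NEFM at 50.8 on that length, so that NEFM is above KRT18 in the other calculations and not in that one.

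Marker genes of several cell types were measured beside the filaments, in the DMSO libraries and on the same scale, and the most abundant of each list are named. The mesenchymal markers were the highest as a list, all 6 of them at a level of 1 or more: CDH2, a cadherin of neural and mesenchymal cells, had 54.0 ± 1.51, the transcription factor SNAI2 26.9 ± 1.92 and ZEB1 20.03 ± 1.17. Of the neural progenitor markers MSI1 (19.2 ± 3.49), SOX2 (12.8 ± 0.741) and PAX6 (7.03 ± 0.232) were present, and SOX1 and FABP7 had at most 2 reads in a library. Among 8 neuronal markers the synaptic vesicle protein SYP had 7.72 ± 0.466, GAP43 2.00 ± 0.340 and MAP2 0.490 ± 0.0343, so that only SYP and GAP43 reached 1. Neuronal tubulin TUBB3 (0.196), STMN2 (0.124) and DCX (0.0371), chosen for mention after their values were seen, stood far below NEFL and NEFM as counted. Exon overlap with other genes was examined for the filament genes and not for the markers. Whether reads of a marker were lost to an overlapping gene was not tested. A low count of TUBB3 or another marker therefore does not show that its mRNA was scarce. The kidney list summed to between 5.69 and 7.24: LHX1 had 3.57 ± 0.355, EMX2 2.16 ± 0.365 and PAX2 0.733 ± 0.169, while CDH16 had 0 reads and PAX8 at most 2, values that also led to their mention. Epithelial markers summed to between 7.74 and 8.04, with OCLN at 5.52 ± 0.124 and CDH1 and EPCAM near 1.09 and 1.08. CHGA (1.63 ± 0.212) led the sympathoadrenal markers, in which TH and DBH had at most 1 read, and none of the adrenal cortex markers NR5A1, STAR and CYP11A1 passed 0.181. Muscle markers MYH3 and ACTA1 had 3.07 and 1.16, and the skin list was carried by KRT10 at 7.39, with KRT5, KRT9 and KRT14 at 0 reads.

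With DOX the fitted value of every one of the 10 genes was higher than with DMSO, but in the fit to all 6 libraries none was past the threshold. The question is whether filament mRNAs moved when the 4EBP1 mutant was induced. In edgeR's quasi-likelihood test, adjusted by Benjamini-Hochberg over all genes, 0 of the 10 were called at an adjusted p under 0.05, and 0.0% of the 20552 genes tested were. EIF4EBP1, the induced gene, was not called either, with a log2 change of 0.75 (SE 0.0953) and an adjusted p of 0.326 by that test. Without DOX replicate 3 its adjusted p was 1.19e-05 by the same test. A gene not called in the fit to 6 libraries is therefore not shown to be unchanged. At an unadjusted p under 0.05 the quasi-likelihood test counted 4 of the 10, NEFM, KRT18, NEFH and PRPH, all higher, against 9.58% of all genes higher. DESeq2's Wald test called 0 of the 10 and 0.0146% of all genes, 0.00487% higher and 0.00973% lower. The likelihood ratio test of edgeR also called 0 of the 10, with 5 genes higher and 7 lower among all. The median log2 change of the 10 was 0.42, beside −0.04 over all genes tested, of which 46.3% were above 0, and without DOX replicate 3 it was 0.27, beside −0.01. When libraries were scaled by their totals the median over all genes moved to 0.10, with 59.5% above 0, and the smallest of the 10, that of VIM, was 0.26. All 10 had their highest value in DOX replicate 3.

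**Figure D3:**
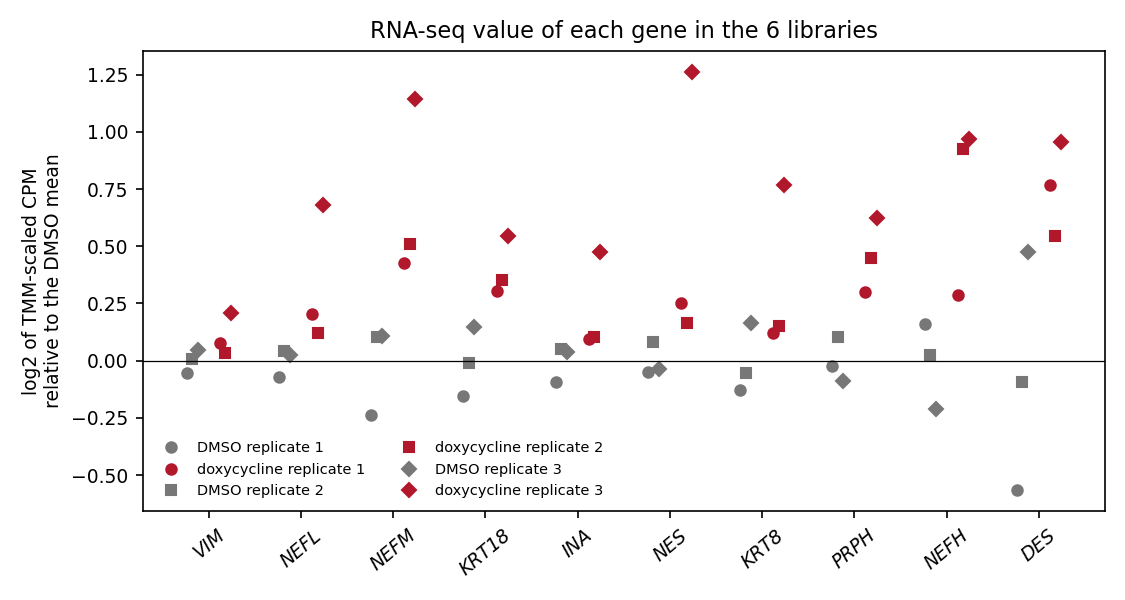
Log2 of the TMM-scaled CPM of each gene in each of the 6 RNA-seq libraries, relative to the mean of the 3 DMSO libraries (grey DMSO, red DOX, the symbol giving the replicate). For all 10 genes the highest point is DOX replicate 3.

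NEFM, the medium neurofilament chain, moved most among the abundant genes. It had 67.0, 84.9 and 85.3 CPM with DMSO and 106, 113 and 175 CPM with DOX. All DOX values were above all DMSO values, with DOX replicate 3 far above the others. The log2 fold change was 0.73 (SE 0.209), a 1.66-fold difference, with an adjusted p of 0.326 by edgeR's quasi-likelihood test. Without DOX replicate 3 it was 0.47 (SE 0.0857, 1.38-fold) with an adjusted p of 0.00922, and limma-voom with sample quality weights, which gave that library a weight of 0.0770, had 0.47 and 0.00254. The limma-voom weight was 4.48 for DOX replicate 2 and 0.700 for DOX replicate 1, so that its DOX values rest mostly on DOX replicate 2. Over all alternatives the adjusted p of NEFM ran from 0.00254 to 0.620. NEFL, from the neighbouring gene, had 101, 109 and 108 CPM with DMSO and 122, 115 and 170 CPM with DOX, also without overlap. Its log2 fold change was 0.36 (SE 0.159, adjusted p 0.326 by the same test), and 0.16 (SE 0.0646, adjusted p 0.126) without DOX replicate 3.

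KRT18 had 22.7, 25.1 and 28.0 CPM with DMSO and 31.2, 32.3 and 36.9 CPM with DOX, again with no overlap. The log2 fold change was 0.40 (SE 0.127, 1.32-fold, adjusted p 0.326 by edgeR's quasi-likelihood test), 0.33 (SE 0.0867, 1.26-fold, adjusted p 0.0326) without DOX replicate 3, and 0.31 (adjusted p 0.00713) with limma-voom sample weights. Its partner KRT8 had 6.02, 6.34 and 7.37 CPM with DMSO and 7.15, 7.30 and 11.2 CPM with DOX, so that the groups overlapped. The change in KRT8 was 0.37 (SE 0.199, adjusted p 0.328 by the same test) and 0.14 (adjusted p 0.465) without DOX replicate 3. The reads of the pseudogenes had 17.6 ± 1.52 CPM with DMSO and 20.8 ± 2.71 with DOX for KRT8, and 9.54 ± 0.709 and 12.4 ± 2.72 for KRT18.

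VIM showed the smallest change. It had 769.9, 803.9 and 824.6 CPM with DMSO and 842.9, 817.0 and 922.6 CPM with DOX, where the groups overlapped. Its log2 fold change was 0.11 (SE 0.0945, adjusted p 0.475 by edgeR's quasi-likelihood test) and 0.05 (SE 0.0602, adjusted p 0.629) without DOX replicate 3. NES had 6.74, 7.37 and 6.80 CPM with DMSO and 8.30, 7.82 and 16.7 CPM with DOX. That highest value decided most of its change, which was 0.64 (SE 0.286) on the log2 scale with the 6 libraries and 0.21 (SE 0.0994) without DOX replicate 3, with adjusted p of 0.326 and 0.195 by the same test. INA had 22.03, 24.4 and 24.2 CPM with DMSO and 25.1, 25.2 and 32.7 CPM with DOX, a log2 change of 0.23 (SE 0.137) and of 0.10 without DOX replicate 3.

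NEFH, PRPH and DES had few reads. NEFH had 16, 14 and 11 raw reads with DMSO and 15, 23 and 13 with DOX, and DES had 6, 8 and 11 against 13, 11 and 8. PRPH had 40, 42 and 34 reads against 43, 47 and 29. After scaling no DOX value of these 3 genes was below a DMSO value. Their log2 changes were 0.72 (SE 0.289) for NEFH, 0.74 (SE 0.355) for DES and 0.45 (SE 0.180) for PRPH, each with an adjusted p of 0.326 by edgeR's quasi-likelihood test. Without DOX replicate 3 the changes were 0.63 for NEFH, 0.67 for DES and 0.37 for PRPH. Their adjusted p were then 0.267, 0.350 and 0.293 by the same test. Limma-voom with sample weights, which weighted DOX replicate 2 most, called NEFH (0.87, adjusted p 0.0114) and PRPH (0.44, adjusted p 0.0332).

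Across the 10 genes, 8 had all DOX values above all DMSO values, KRT8 and VIM being the others, and 17.7% of all genes tested did so. The exact two-sided permutation test over the libraries gives 0.1 for each of the 8, which is the smallest p that 3 against 3 allows, and 0.2 for VIM and 0.3 for KRT8. Without DOX replicate 3 edgeR's quasi-likelihood test called 2 of the 10, NEFM and KRT18, where 7.43% of all genes were called, 3.4% higher and 4.03% lower. Limma-voom with sample weights called 4 of the 10, all higher, where 16.6% of all genes were called higher and 17.3% lower (33.9% in all). In bulk RNA, more cells that make an mRNA and more mRNA per cell cannot be told apart.

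**Figure D4:**
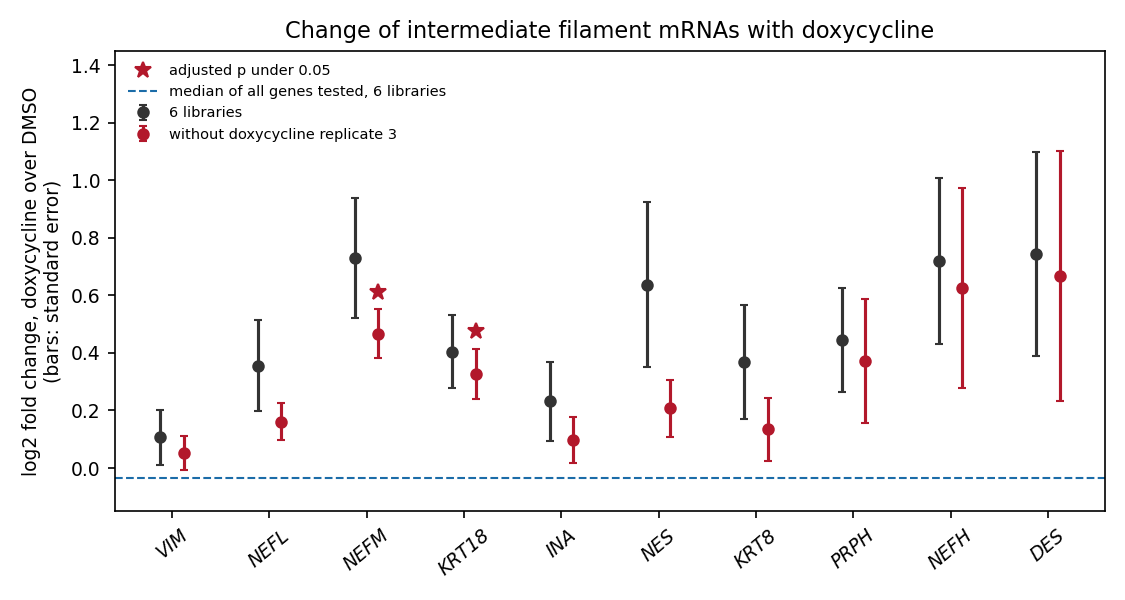
Log2 fold change of each gene, DOX over DMSO, with its standard error, from the 6 RNA-seq libraries (dark) and without DOX replicate 3 (red), where stars mark an adjusted p under 0.05 in edgeR's quasi-likelihood test; the dashed line is the median over all genes tested. All values lie above 0, and only NEFM and KRT18 without that library carry a star.

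Ratios within a library need no scaling and were compared between partners. NEFM over NEFL was 0.721 to 0.859 in the DMSO libraries and 0.944 to 1.12 in the DOX libraries, so that NEFM went from below NEFL to about its level. The log2 difference was 0.37, the groups did not overlap, and the exact permutation p was 0.1 (0.175 after Benjamini-Hochberg adjustment over 7 ratios, two-sided). It ran from 0.29 to 0.44 as each library was left out. KRT8 over KRT18 was 0.113 to 0.118 with DMSO and 0.101 to 0.135 with DOX, a log2 difference of −0.06 (exact permutation p 0.8), and its sign turned when DOX replicate 1 or 2 was left out. VIM over NES was 117 to 131 with DMSO and 59.4 to 112 with DOX, a log2 difference of −0.46 (exact permutation p 0.1) that was −0.16 without DOX replicate 3. The keratins together over VIM differed by 0.30 and the 5 neuronal genes together over VIM by 0.37, both without overlap and with an exact permutation p of 0.1, and the latter was 0.23 without DOX replicate 3. INA over NEFL (−0.11) and NEFH over NEFL (0.40, and 0.19 without DOX replicate 2) overlapped between groups. VIM made up 64.2% ± 3.65 of the summed levels with DOX, against 69.9% ± 1.01 with DMSO.

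The other intermediate filament genes were read from the same fit. Of 26, 10 passed the filter on low counts and 0 were called by edgeR's quasi-likelihood test, with or without DOX replicate 3, with a median log2 change of 0.25 and of 0.12. The nuclear lamins were the most abundant, LMNB2 with a level of 149 ± 13.7, LMNB1 with 142 ± 8.20 and LMNA with 28.2 ± 3.20, and both B-type lamins stood above every one of the 10 genes except VIM. SYNM (7.47 ± 0.982) and BFSP1 (5.82 ± 0.579) led the other listed filament proteins that are neither lamins nor keratins, where GFAP, the astrocyte filament, had 0.114. Other simple keratins were near 0 with DMSO, KRT19 having 0.311 and KRT7 0.0247. KRT19, with 3 to 24 reads per DMSO library, had the largest log2 change of the filament genes tested. It was 1.72, and 1.16 without DOX replicate 3 (adjusted p 0.326 and 0.132 by edgeR's quasi-likelihood test). The lamin median was 0.39, while KRT10 (−0.53), SYNC (−0.14) and LMNB1 (−0.00055) were the tested genes of the 26 below 0. Among linkers, which tie filaments to desmosomes and the cytoskeleton, DSP had 62.3 ± 4.40, PLEC 31.2 ± 5.63 and DST 29.1 ± 1.49. Among genes that regulate filaments, such as mitotic kinases that phosphorylate VIM, CDK1 had 132 ± 6.52, AURKB 124 ± 8.35 and PLK1 69.6 ± 6.45.

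Of all 85 listed genes, 50 were tested and 0 were called in the 6 libraries. Without DOX replicate 3 edgeR's quasi-likelihood test called 2 linkers higher, PLEC (log2 0.48, adjusted p 0.00863) and EPPK1 (0.44, adjusted p 0.0221), and CDK1 lower (−0.31, adjusted p 0.0246). In that fit 7.43% of all genes were called, 3.4% higher and 4.03% lower, so that these calls do not set the listed genes apart. The median over the 50 was 0.01 with and without DOX replicate 3, beside 0.42 and 0.27 for the 10 filament genes. In the fit to 6 libraries the median change of the 6 neuronal markers tested was −0.21 and of the 6 mesenchymal markers −0.12. Both medians were below 0, while NEFL, NEFM, INA and VIM had values above 0. The lists were mixed, with SYP (0.17), COL1A1 (0.80) and TWIST1 (0.03) above 0 and the other markers tested in them below 0. None of these genes was past the threshold in that fit. Without DOX replicate 3 edgeR's quasi-likelihood test called NEFM.

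Ribo-seq gave few reads on these genes. All 10 together had 92 reads in the 6 libraries, against 303256 reads in RNA-seq. NEFL had 0, 1 and 12 reads with DMSO and 0, 0 and 0 with DOX, NEFM had 1, 8 and 0 against 0, 0 and 0, and VIM 1, 21 and 8 against 5, 5 and 1. KRT8 had 9 reads in 1 library of each group, PRPH 8 in all and INA 3, and NEFH, NES, DES and KRT18 had 0. The KRT18 pseudogenes held 26 Ribo-seq reads and those of KRT8 held 7. The 0 of KRT18 therefore does not show that its mRNA had no footprints, and the source of the pseudogene reads was not tested. A count of 0 allows up to 2.99 to 14.3 CPM in a single Ribo-seq library. The reads were thus spread over few libraries, with 92.3% of those of NEFL in DMSO replicate 3.

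**Figure D5:**
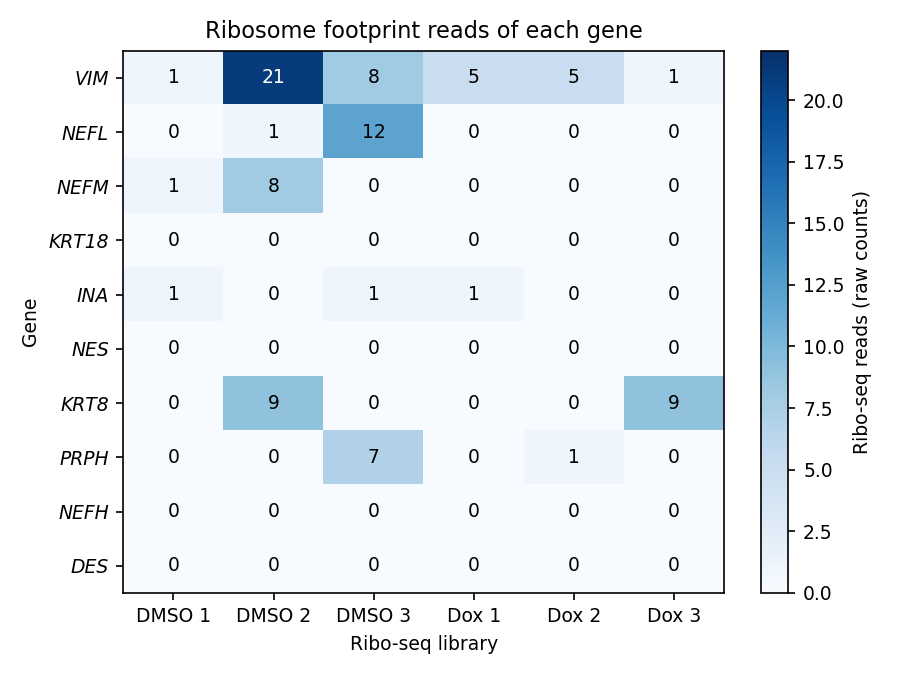
Raw Ribo-seq reads of each gene in each of the 6 Ribo-seq libraries, printed in the cells and shaded from 0 to 22. The highest cell is VIM in DMSO replicate 2 with 21 reads, and most cells hold 0.

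Translation efficiency (TE), the Ribo-seq value relative to the RNA-seq value, could be tested for NEFL, VIM and KRT8. In the interaction of assay and treatment, edgeR's quasi-likelihood test called 0 of the 3, where 0.15% of 1334 genes were called; at an unadjusted p under 0.05 it counted 1 of them, NEFL, lower (p 0.0184), where 13.3% of genes were counted lower. The fit for NEFL gives no bound, since no DOX library has a read. The pooled Ribo-seq CPM of NEFL with DMSO was 3.84 times a floor of 3 reads over the DOX libraries, and that of NEFM 2.66 times. These ratios leave out the counting error of the DMSO reads, so they are not lower bounds, and they are not relative to RNA-seq. Each ratio rests on 1 library: without DMSO replicate 3 NEFL, and without DMSO replicate 2 NEFM, has 1 read left with DMSO, under the floor. The exact permutation p of both was 0.4. VIM had a log2 TE difference of −1.17 (SE 1.30, adjusted p 0.718 by the same test) and KRT8 of −0.02 (SE 1.77, adjusted p 0.998). DESeq2's Wald test called NEFL lower (log2 −4.65, adjusted p 0.0379), where 5.17% of genes were called, 1.95% higher and 3.22% lower, and without DMSO replicate 3, the library with 12 of its 13 reads, NEFL fell below the filter and was not tested.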

How the data were processed

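RNA-seq and Ribo-seq libraries of 1 human cell line, 12 in all, were grouped by their labels. The authors trimmed and mapped the reads with STAR and deposited raw counts of uniquely aligned reads per gene, not normalized; the labels' processing notes name GRCh37 and the methods GRCh38, and a strand setting is not given in the sources used here. The deposited table of RiboDiff results, which holds the authors' own comparisons, was not used. Of 58735 genes, 58207 (99.1%) matched GENCODE release 44 on GRCh38, which gave coordinates, exons, sequences and lengths. Reads without a gene, 92 ERCC rows and 89 other rows stayed out of library sizes and tests. Of all reads, those on genes were 5.94% to 30.8% (RNA-seq) and 0.888% to 2.95% (Ribo-seq). No 2 libraries held the same counts.

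Changes were tested with edgeR 4.0.16 (R 4.3.3), TMM and the quasi-likelihood test, at a Benjamini-Hochberg adjusted p under 0.05, on genes with at least 10 reads in at least 3 RNA-seq libraries, and TE as the interaction of assay and treatment where each assay held a total of 10 reads or more for the gene. Single values and ratios had the exact permutation test. DESeq2 1.42.0 and limma 3.58.1 were alternatives. Windows were searched in the genome on both strands, and pseudogenes aligned with blastn 2.17.0. Intervals and floors cover counting error only. The members and gene lists were chosen with earlier results of these data known. Named genes are the 10, EIF4EBP1 and, from each list, up to 3 called genes in each direction or else the 3 with the highest level with DMSO; any other listed gene was named after its values were seen. Some listed items are not reported here.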

Additional observations from a re-analysis of the deposited data

How the results depend on the processing

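Among all genes, the RNA-seq test called 0 higher and 0 lower. DESeq2's Wald test called 1 and 2, edgeR's likelihood ratio test 5 and 7, limma-voom with sample weights 3407 and 3554, and leaving out each replicate in turn gave 0 to 696 and 0 to 825, the upper values both without DOX replicate 3. Of the 10 filament genes the corresponding counts higher were 4 with limma-voom and 0 to 2 over left-out replicates, again 2 without DOX replicate 3, and of the 85 listed genes 9 higher and 7 lower with limma-voom, and 0 to 2 higher and 0 to 1 lower over left-out replicates. DESeq2's Wald test called 1 TE decrease, that of NEFL. Scaling by library totals or by DESeq2's size factors, no filter and a minimum of 60 reads each called 0 filament genes in RNA-seq; with 60 reads 7 of the 10 were tested, and without DMSO replicate 3, DOX replicate 1 or DOX replicate 2, 9 were. The fitted direction of all members tested was higher in each of these RNA-seq settings. The difference in KRT8 over KRT18 ran from −0.19 to 0.018 over left-out replicates. VIM's percent of the summed levels was 81.5% with canonical lengths and 68.1% with pseudogene reads added. The cause of the differences between settings was not tested. Same-numbered DMSO and DOX libraries had RNA-seq deviations that correlated at 0.25, −0.20 and 0.02, and not each library correlated best with its own number. With 3 libraries per group these correlations cannot settle whether the numbers pair the samples, and the main tests treat them as unpaired. With the replicate number as a block, 0 of the 10 were called in RNA-seq and 0 in TE. For the RNA-seq ratios, the sign-flip test within the replicate block had 0.25 as its smallest p. Ribo-seq depth limits TE to 3 of the 10 genes.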

Other observations

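The lamin LMNA, named here for its level and then looked at in Ribo-seq after its values were seen, had 71608 Ribo-seq reads in the 6 libraries, against 92 for the 10 cytoplasmic filament genes together, 5 for LMNB2 and 2 for LMNB1. In RNA-seq with DMSO the level of LMNA was below those of both B-type lamins.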
